A study of Homo sapiens with 4 samples.

Results

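The NF-kappa-B pathway and the inflammatory chemokines were examined in LNCaP cells, an established line of human prostate cancer that responds to androgen, as probe sets whose platform annotation named 1 of 36 listed genes and no other. Of these genes, 32 had at least 1 such probe set, which gave 48 probe sets of the 22215 on the array. BCL3 and SOD2 were annotated together with another gene, and TRAF2 and BIRC3 were named by no probe set, so these 4 genes were not analysed here. The cells were transiently transfected by Lipofectamine with an expression vector for MED1, a coactivator that belongs to Mediator, or with the empty vector, and RNA was taken after 24 hours. Each group had 2 samples, and both groups were grown in RPMI-1640 with fetal bovine serum. Transfection was transient and the labels give no share of transfected cells, so a change in few cells and a smaller one in all cannot be told apart. The description field of both empty vector samples speaks of the MED1 vector, but their titles, source names and transfection labels say empty vector, and these were followed.

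NF-kappa-B is a family of paired transcription factors that are held in the cytoplasm by inhibitor proteins of the I-kappa-B family. Signals from cytokine receptors and pattern-recognition receptors pass through TRAF adaptor proteins to the IKK kinase complex, which marks the inhibitors for destruction and so frees the dimers to enter the nucleus. Their targets include chemokines, cytokines, adhesion molecules and the inhibitors themselves, which makes the pathway self-limiting. In prostate cancer cells NF-kappa-B is known for its links to inflammation and to growth at low androgen.

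The values are MAS5 signals, a linear intensity for each probe set, scaled alike on every array. The median signal was 77.0 to 78.4 on the MED1 arrays and 79.6 to 82.7 on the empty vector arrays. Of the 2 MED1 probe sets, the dimmer read 559 and 807 with MED1 against 292 and 315 with empty vector (limma, Benjamini-Hochberg adjusted p = 0.0344), while the groups overlapped on the brighter one. That call was lost without empty vector replicate 1 (adjusted p = 0.0716) or 2 (adjusted p = 0.102), and with no filter or no intensity trend (0.381 and 0.357). The luminal prostate markers, among them KLK3, were all tested on each of their 15 probe sets, and 0 passed, where 0.308% of all tested probe sets did. At an unadjusted p under 0.05 (limma) there were 3, or 20%, all lower with MED1, where that share was 9.19% of all. These were of KLK2, with log2 fold changes of -0.43 and -0.29, and of TMPRSS2, at -0.31. The other TMPRSS2 probe set was at 0.17 and the third KLK2 probe set at -0.11. Both MED1 arrays were below both empty vector arrays on 7 of the 15 and above on 0, where the shares of all were 22.6% and 17.2%. The 15 are of 10 genes, so they are not independent.

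No member passed the test between the groups. The chemokines CXCL10 and CCL5 stood highest, with log2 fold changes of 1.28 ± 0.26 and 0.90 ± 0.28 (SE), while the subunits, inhibitors and kinases that carry the signal lay between -0.57 and 0.32. In all, 22 probe sets of 18 genes had a mean signal above the filter level of 32.2 and were tested. The filter used the mean over all 4 arrays, and CXCL10, CCL5 and RELB passed it only through the MED1 arrays, with empty vector means of 25.7, 18.6 and 32.1. The counts over tested members below therefore describe these probe sets and support nothing further. Of the 22, 0 passed an adjusted p of 0.05 (limma, Benjamini-Hochberg over 13329 probe sets), where 0.308% of all tested probe sets did, 0.12% higher and 0.188% lower with MED1. At an unadjusted p under 0.05 there were 3, for CXCL10, CCL5 and TRAF3, all higher with MED1, where that share was 9.19% of all in either direction and 3.98% higher. The 22 log2 fold changes had a median of -0.0036, with 11 above and 11 below 0, against a median of -0.02 over all tested probe sets. Both MED1 arrays exceeded both empty vector arrays on 6 of the 22, where 17.2% of all tested probe sets showed that order, and were below them on 2, where the share was 22.6%, which makes 8 of 22 without overlap against 39.9%. With each array centred on its median, 6 members were above, where 24.8% of all were, and 0 below, where 15.7% were. The other 26 member probe sets were too weak to be tested: 25 had a mean signal under 31 and are called dim, and 1 of ICAM1 lay between 31 and the filter level. Among those 26 the groups did not overlap on 10, where 33.8% of all probe sets under the filter did not. For these the signals are given with no test. Detection calls were not part of the data used, so how far a low signal stands above background is unknown.

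**Figure D1:**
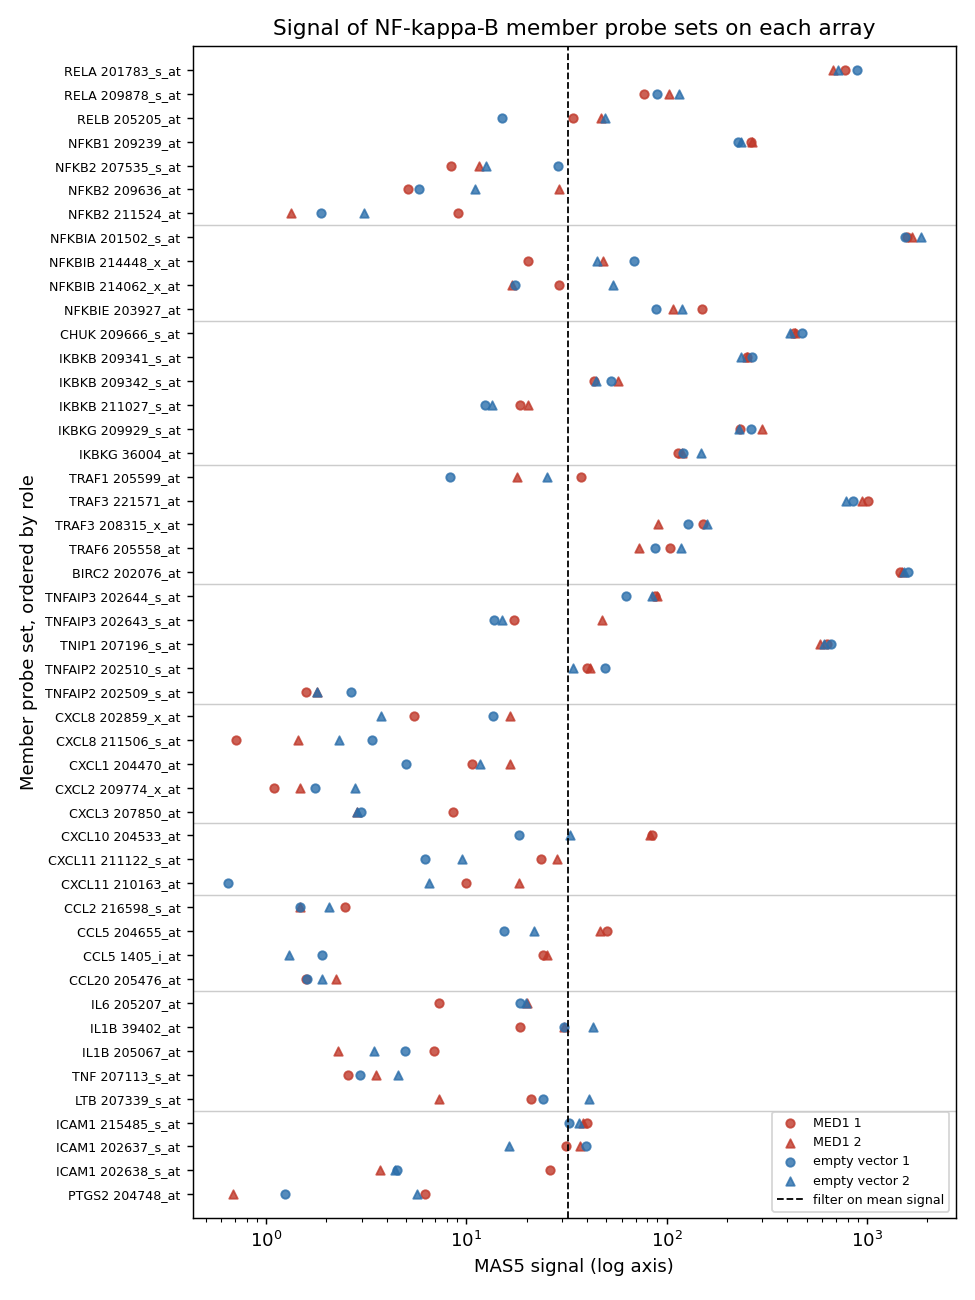
MAS5 signal of each of the 48 member probe sets (rows, ordered by role) on each of the 4 arrays (log axis), with MED1 in red and empty vector in blue, replicate 1 as circles and replicate 2 as triangles. The dashed line marks the filter level of 32.2 on the mean signal. Red and blue points stand apart on CXCL10, CXCL11 and CCL5 and lie close together or interleave on most other rows.

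**Figure D2:**
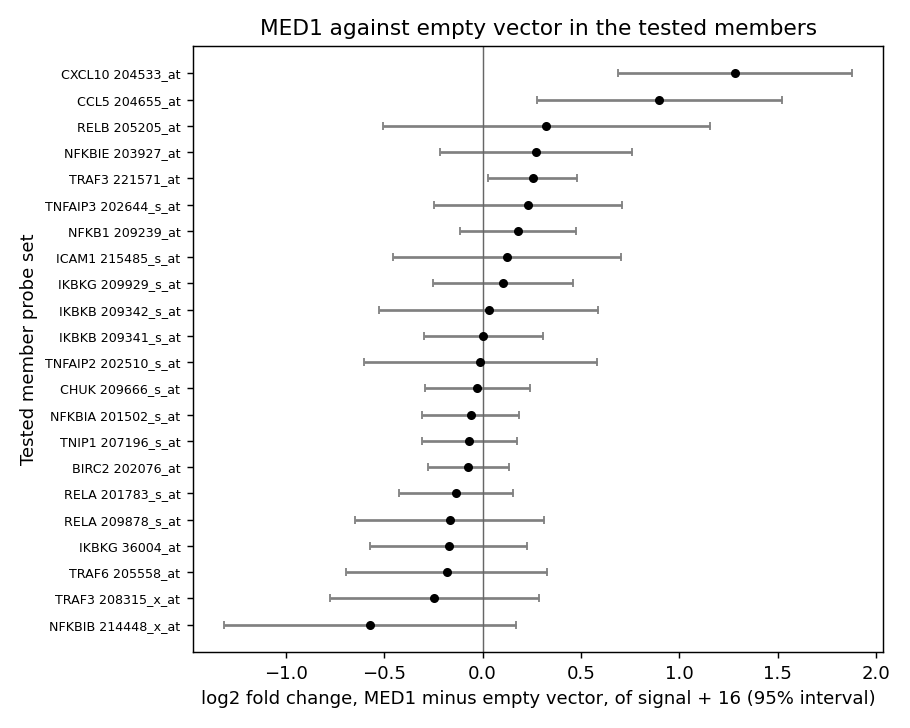
Log2 fold change (points) and its 95% interval (bars) from limma for the 22 tested member probe sets, MED1 minus empty vector. The intervals of CXCL10, CCL5 and 1 of the 2 TRAF3 probe sets exclude 0 before adjustment for multiple tests, and the other 19 include it.

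Among the chemokines, CXCL10, CXCL11 and CCL5 read higher in the MED1 samples on every probe set. They are named together because of these values, not as a class set beforehand. The CC chemokines CCL2 and CCL20 and the neutrophil attractants were at very low signals in both groups. CXCL10, a ligand of the receptor CXCR3, read 84.9 and 82.5 with MED1 against 18.2 and 33.1 with empty vector. The groups did not overlap, and the replicates of the MED1 group were close together. The group means were 83.7 ± 1.66 and 25.7 ± 10.5 (SD, n = 2), and the log2 fold change of 1.28 ± 0.26 (SE), with a 95% interval of 0.69 to 1.88, did not pass (limma, Benjamini-Hochberg adjusted p = 0.146). Its empty vector mean was under the filter level, so it was tested only because the MED1 arrays were high.

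CXCL11, a second CXCR3 ligand, was dim on both of its probe sets. On one, signals were 23.5 and 28.3 with MED1 against 6.25 and 9.53 with empty vector. On the other they were 9.98 and 18.2 against 0.645 and 6.53. The groups did not overlap on either, and the differences on the log2 scale of signal + 16 were 0.81 and 0.62. Of all probe sets under the filter, 13.3% showed that order.

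CCL5, also called RANTES, attracts T cells and monocytes. Its tested probe set read 50.2 and 46.3 with MED1 against 15.4 and 21.8 with empty vector, with no overlap. The log2 fold change of 0.90 ± 0.28 (SE) had a 95% interval of 0.27 to 1.52 and did not pass (limma, Benjamini-Hochberg adjusted p = 0.37). It too was tested only through the MED1 arrays, its mean over all 4 arrays being 33.4. Its dim probe set read 24.1 and 25.3 against 1.91 and 1.31, a difference of 1.21 on the log2 scale of signal + 16. The 2 CCL5 probe sets read the same way, but they measure 1 gene on the same 4 arrays and are not independent. On the dim one the replicates of each group differed far less than the groups, though its empty vector signals were near 0. Because all these signals are low, the sizes depend on the number added before taking logs. With 1 and 64 in place of 16 the CXCL10 log2 fold change was 1.73 and 0.72, that of the tested CCL5 probe set was 1.35 and 0.44, and the difference of the dim one was 3.31 and 0.43.

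The other CC chemokines read near 0 on every array. CCL2, a monocyte attractant, read 1.47 to 2.48 and CCL20, the ligand of CCR6, read 1.59 to 2.25, and in both the groups overlapped.

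The neutrophil-attracting chemokines, which carry the ELR motif and are textbook NF-kappa-B targets, had 5 probe sets, and all were dim. CXCL8 read 5.47 and 16.5 with MED1 against 13.6 and 3.74 with empty vector on its brighter probe set. These values interleave. Its other probe set read 0.712 and 1.45 against 3.38 and 2.31. CXCL1 read 10.7 and 16.5 against 4.999 and 11.7, and the groups overlapped. CXCL2 read 1.09 and 1.48 against 1.75 and 2.77, and CXCL3 read 8.57 and 2.86 against 2.98 and 2.86. On CXCL2 and on the dimmer CXCL8 probe set both MED1 arrays were below both empty vector arrays, at signals under 4 throughout, and 20.4% of all probe sets under the filter had that order. CXCL1, CXCL2 and CXCL3 are near-identical genes, so a probe set of one may also read the others.

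**Figure D3:**
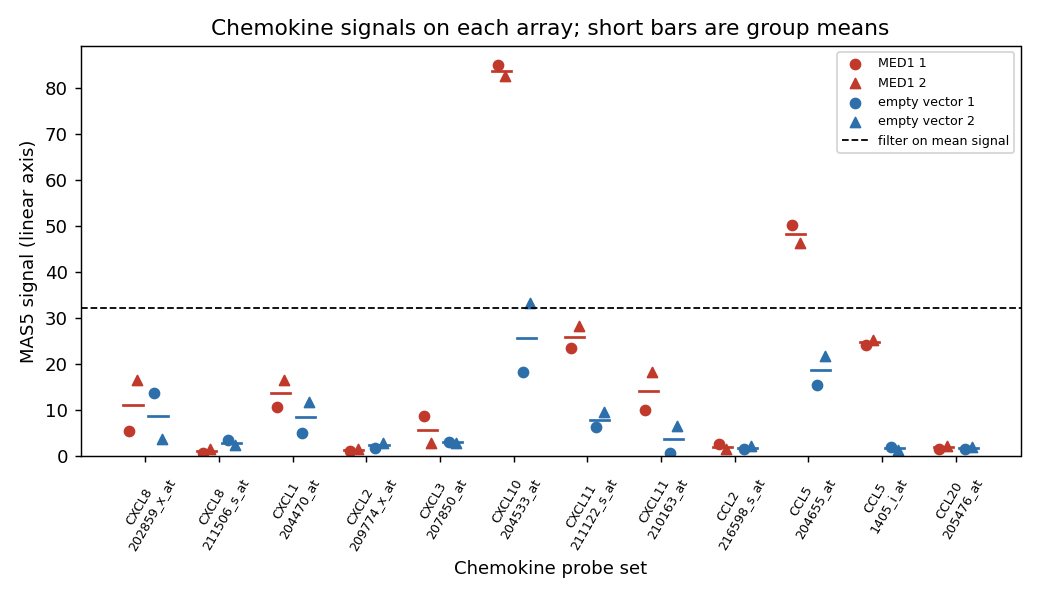
MAS5 signal (linear axis from 0) of the 12 chemokine probe sets on the MED1 arrays (red) and the empty vector arrays (blue), with short bars at the group means. MED1 points lie above empty vector points on CXCL10 and on both probe sets each of CXCL11 and CCL5, and the probe sets of CXCL8, CXCL1, CXCL2, CXCL3, CCL2 and CCL20 stay at or below 16.5.

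CXCL10 and CXCL11 read higher with MED1 on every probe set, and CXCL8 and CXCL1 are from the neutrophil-attracting group. On the dimmer CXCL8 probe set the groups did not overlap either, with MED1 lower. CCL5 had no entry among the promoters. The promoters of the 4 chemokines CXCL10, CXCL11, CXCL8 and CXCL1 are shown, so that their kappa-B and interferon-response letters can be read beside the signals. Each is the stretch of 250 bases ending just before the annotated start, 5′ to 3′ on the gene's strand, from RefSeq on GRCh38.p14. CXCL10 is at chr4:76023498-76023747 and CXCL11 at chr4:76036071-76036320, both on the minus strand, and CXCL8 at chr4:73740319-73740568 and CXCL1 at chr4:73869143-73869392, both on the plus strand. Capitals mark matches to the kappa-B consensus (searched as the usual degenerate motif of 10 letters), to its 9-letter core GGAATTTCC, and to the interferon-stimulated response element (GAAA, any 2 bases, GAAA), each on both strands; matches to the consensus and the core overlap.
CXCL10: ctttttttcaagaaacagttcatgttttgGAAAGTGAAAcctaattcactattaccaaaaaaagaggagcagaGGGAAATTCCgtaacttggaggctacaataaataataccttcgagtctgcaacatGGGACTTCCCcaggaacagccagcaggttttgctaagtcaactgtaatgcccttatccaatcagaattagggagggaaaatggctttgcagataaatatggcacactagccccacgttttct
CXCL11: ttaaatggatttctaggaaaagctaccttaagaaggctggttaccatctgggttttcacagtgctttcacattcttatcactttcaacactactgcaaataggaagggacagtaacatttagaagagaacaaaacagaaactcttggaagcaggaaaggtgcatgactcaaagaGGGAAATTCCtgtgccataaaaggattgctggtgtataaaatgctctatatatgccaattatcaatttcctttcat
CXCL8: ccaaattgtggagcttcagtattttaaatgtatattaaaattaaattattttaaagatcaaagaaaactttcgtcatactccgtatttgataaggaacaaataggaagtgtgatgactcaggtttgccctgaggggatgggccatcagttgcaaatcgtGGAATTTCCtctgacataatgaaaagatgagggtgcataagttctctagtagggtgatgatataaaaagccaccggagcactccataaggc
CXCL1: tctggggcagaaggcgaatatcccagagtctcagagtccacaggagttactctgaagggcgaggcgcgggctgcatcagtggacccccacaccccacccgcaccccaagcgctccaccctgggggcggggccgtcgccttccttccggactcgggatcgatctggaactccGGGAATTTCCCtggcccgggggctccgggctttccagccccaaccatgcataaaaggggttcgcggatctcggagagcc

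The core GGAATTTCC, or its reverse complement, lay in all 4 of these windows, and also in those of CXCL2 and CXCL3. It began 176 bases before the start in CXCL10, 75 in CXCL11, 91 in CXCL8 and 78 in CXCL1. Among all 35116 promoter windows of this length, 0.413% held it, and among the 47 windows of the 31 listed genes with an entry, 10 did, for CXCL1, CXCL2, CXCL3, CXCL8, CXCL10, CXCL11, NFKB1, NFKBIA, NFKBIB and ICAM1. The members include genes picked as known NF-kappa-B targets, so that share describes the choice of list. The core was picked after the windows had been read. The wider consensus was in the CXCL10, CXCL11 and CXCL1 windows and not in that of CXCL8, and in 38.3% of the member windows and 9.96% of all windows. The interferon-stimulated response element was in 2 member windows, those of CXCL10, where it lay 221 to 212 bases before the start, and of RELA, and in 3.02% of all windows. The shorter core AANNGAAA, which lies within that element, was in 10 member windows, those of CXCL10 and CXCL11 among them, and in 20.3% of all windows.

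The inflammatory cytokines were dim on all 5 of their probe sets, so none was tested. IL6 read 7.33 and 20.03 with MED1 against 18.5 and 19.9 with empty vector. IL1B read 18.6 and 30.8 against 30.6 and 43.1 on its brighter probe set and 2.28 to 6.92 on the other. TNF, the classic inducer of the pathway, read 2.56 and 3.56 against 2.96 and 4.57. In these 3 genes the groups overlapped on every probe set. LTB, a membrane-bound ligand of the lymphotoxin beta receptor, read 20.9 and 7.30 against 24.3 and 40.8, with both MED1 arrays below both empty vector arrays.

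CCL5, LTB and TNF are well known from leukocytes, though the samples here are of the LNCaP line. Markers of leukocytes and endothelium were read on the same arrays. Leukocyte and endothelial markers had 12 probe sets, of which 11 were under the filter. Without the tested one, of the endothelial gene VWF (118 and 150 with MED1 against 131 and 130 with empty vector), the other 11 summed to 121 and 129 with MED1 against 90.5 and 130 with empty vector. Both MED1 arrays were above on 3 of the 11, where 13.3% of all probe sets under the filter were, and below on 4, where 20.4% were. The 3 above were CD3E, of the T-cell receptor complex (38.9 and 24.9 against 11.3 and 18.0), CSF1R, the macrophage growth factor receptor (31.8 and 38.8 against 19.4 and 18.7), and 1 probe set of the pan-leukocyte gene PTPRC (10.9 and 12.4 against 1.72 and 9.41). The 4 below were the other 2 of PTPRC, 1 of PECAM1 and that of LYZ, the lysozyme of myeloid cells. Those of PTPRC read 0.833 and 0.389 against 10.2 and 1.53, and 9.64 and 7.69 against 14.4 and 11.9. PECAM1 read 2.14 and 2.66 against 3.39 and 33.2, and that last reading is part of the sum of 130. LYZ read 1.15 and 2.28 against 5.19 and 8.42. CD14, a monocyte marker, read 1.92 to 2.91 over all arrays. The part of such signals in the chemokine differences was not tested.

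None of the DNA-binding subunits passed the test. NFKB1, whose product is processed to p50, read 262 and 266 with MED1 against 228 and 235 with empty vector. The groups did not overlap, yet the log2 fold change was only 0.18 ± 0.13 (SE; limma, Benjamini-Hochberg adjusted p = 0.702). RELA, the main activating subunit, read 780 and 676 against 888 and 720 on its brighter probe set and 77.2 and 102 against 89.6 and 116 on the other. The groups overlapped on both RELA probe sets, and the log2 fold changes were -0.14 ± 0.13 and -0.17 ± 0.21 (SE; adjusted p = 0.788 and 0.853). On the brighter one the 95% interval of the ratio ran from 0.745 to 1.11. RELB, the partner of the alternative pathway, read 34.3 and 47.0 against 15.1 and 49.0, so 1 empty vector array lay below the other 3. Its log2 fold change of 0.32 turned to -0.21 without empty vector replicate 1 and was 0.86 without empty vector replicate 2, with no call in either. NFKB2, the precursor of the alternative pathway's p52, was dim on all 3 of its probe sets, with mean signals of 3.84 to 15.3. On 1 of these it read 8.37 and 11.6 against 28.7 and 12.5, with both MED1 arrays lower, and on the other 2 the groups overlapped.

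The inhibitors showed no common direction. NFKBIA, which encodes I-kappa-B alpha and is itself a rapid target of the pathway, read 1584 and 1670 with MED1 against 1550 and 1859 with empty vector. The groups overlapped, the log2 fold change was -0.06 ± 0.11 (SE; limma, Benjamini-Hochberg adjusted p = 0.906), and the 95% interval of the ratio was 0.808 to 1.14. NFKBIB, I-kappa-B beta, had the lowest value of the tested members. Its brighter probe set read 20.4 and 48.2 against 68.7 and 45.0, so the arrays interleaved, with a log2 fold change of -0.57 ± 0.33 (adjusted p = 0.62). Its dim probe set read 28.9 and 16.98 against 17.5 and 54.3. NFKBIE, I-kappa-B epsilon, read 151 and 107 against 88.7 and 119, with a log2 fold change of 0.27 ± 0.22 (adjusted p = 0.738).

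The IKK complex lay close to 0, between -0.17 and 0.10 on the log2 scale over its 5 tested probe sets. CHUK, the kinase IKK alpha, read 433 and 435 with MED1 against 475 and 412 with empty vector (log2 fold change -0.03 ± 0.12, SE). IKBKB, the kinase IKK beta, read 251 on both MED1 arrays and 265 and 236 on the empty vector arrays, with a log2 fold change of 0.0040 ± 0.13. A second IKBKB probe set gave 0.03 ± 0.25. The third was dim, at 18.6 and 20.3 against 12.4 and 13.4, with the MED1 arrays higher. IKBKG, the regulatory subunit NEMO, read 234 and 301 against 263 and 229 by one probe set and 114 and 120 against 121 and 148 by the other. IKBKG has a near-identical pseudogene copy that its probe sets may also read. Those 2 IKBKG probe sets differed in sign, at 0.10 ± 0.16 and -0.17 ± 0.18, and adjusted p over the 5 tested IKK probe sets was 0.812 to 0.995 (limma, Benjamini-Hochberg).

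TRAF3, an adaptor that restrains the alternative NF-kappa-B pathway and takes part in interferon induction, had the third-lowest unadjusted p of the members. Its brighter probe set read 1007 and 948 with MED1 against 849 and 785 with empty vector. The groups did not overlap, and the log2 fold change was 0.25 ± 0.10 (SE), which did not pass (limma, Benjamini-Hochberg adjusted p = 0.478). Its second probe set read 153 and 90.5 against 127 and 160 and gave -0.24 ± 0.24, of opposite sign, with overlapping groups. TRAF6, the adaptor of IL1 and Toll-like receptors, read 104 and 73.1 against 87.6 and 117 (-0.18 ± 0.23). TRAF1, an adaptor that is itself induced by NF-kappa-B, was dim, at 37.4 and 17.9 against 8.31 and 25.4. BIRC2, the ubiquitin ligase cIAP1, read 1462 and 1502 against 1597 and 1523. Its MED1 arrays were both lower, by a log2 fold change of only -0.07 ± 0.09 (adjusted p = 0.849).

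None of the feedback regulators and remaining targets passed either. TNFAIP3, the ubiquitin-editing enzyme that shuts the pathway off, read 87.4 and 89.2 with MED1 against 62.7 and 84.5 with empty vector. A dim second TNFAIP3 probe set read 17.2 and 47.8 against 13.7 and 15.1, and the MED1 arrays were above on both, though narrowly on one array of each. The tested one gave a log2 fold change of 0.23 ± 0.21 (SE; limma, Benjamini-Hochberg adjusted p = 0.779). TNIP1, which binds the TNFAIP3 protein, read 632 and 587 against 664 and 613 (-0.07 ± 0.11). TNFAIP2 gave -0.01 ± 0.26 on its tested probe set, and its dim one stayed under 3 on every array. ICAM1, the endothelial and epithelial ligand of leukocyte integrins, read 40.1 and 38.2 against 32.5 and 36.7 on its tested probe set. That is a log2 fold change of 0.12 ± 0.26, and the groups overlapped on its 2 untested probe sets. PTGS2, the inducible cyclooxygenase, read 0.688 to 6.21 and was dim in both groups.

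**Figure D4:**
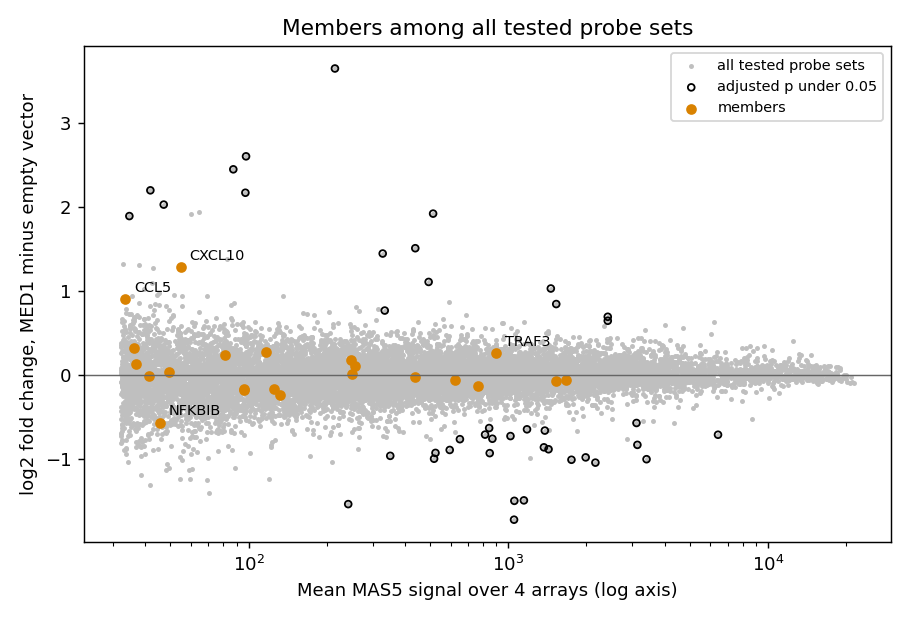
Log2 fold change, MED1 minus empty vector, against the mean MAS5 signal over the 4 arrays (log axis) for all 13329 tested probe sets (grey), those with an adjusted p under 0.05 (open circles) and the 22 tested members (orange). CXCL10 and CCL5 lie above the bulk of probe sets of like signal, at 1.28 and 0.90, and the other 20 members lie between -0.57 and 0.32.

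A list of 74 other genes of the pathway gave 62 genes with a probe set and 76 tested probe sets, of which 0 passed in either direction (limma), with 8 at an unadjusted p under 0.05, or 10.5%, near the 9.19% of all tested probe sets. The 76 had a median log2 fold change of -0.05. Of the 8, 4 were among the other targets, all lower with MED1, and 4 among adaptors and kinases, in both directions. Each was 15.4% of the 26 tested in its list. Receptors and the remaining subunits, inhibitors and deubiquitinases had 0. Other targets leaned lower: 23 of 26 tested probe sets of 12 genes had a negative value, against 53.5% of all tested probe sets, with a median of -0.19. Both MED1 arrays were below both empty vector arrays on 11 of the 26 and above on 0, where the shares of all tested probe sets were 22.6% and 17.2%. Several genes have more than 1 probe set in that count, CFLAR alone having 9 and GADD45B, a stress-response gene, 4, so the 26 are not independent. PLAUR passed the filter only through the empty vector arrays, with means of 27.6 with MED1 and 50.1 with empty vector. IER3 passed it only through the MED1 arrays, with means of 35.3 and 29.9. These counts therefore describe the probe sets and support nothing further. IRF1, an interferon regulatory factor that NF-kappa-B also induces, was at 0.0082. With each array centred on its median, 21 of the 26 were negative, against 41.6% of all.

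In the other targets, the furthest value was narrowly that of CFLAR, the caspase-8 inhibitor c-FLIP. The lowest GADD45B value, -0.590, and that of PLAUR, -0.584, were almost as far. One CFLAR probe set read 43.9 and 85.9 with MED1 against 109 and 94.6 with empty vector, a log2 fold change of -0.59 ± 0.27 (SE; limma, Benjamini-Hochberg adjusted p = 0.554), while its other 8 tested probe sets lay between -0.27 and 0.11. Among receptors the furthest was TLR3, the endosomal sensor of double-stranded RNA, which read 26.1 and 19.7 against 40.3 and 43.9 (-0.58 ± 0.27, adjusted p = 0.578). TLR3 was tested only because the empty vector arrays were high, its MED1 mean of 22.9 being under the filter level. Among adaptors and kinases it was TICAM1, the TLR3 adaptor TRIF, at 66.5 and 164 against 181 and 186. The TICAM1 log2 fold change of -0.71 ± 0.31 did not pass (adjusted p = 0.529), and 1 MED1 array was far below the other. Without MED1 replicate 2 the low array was the only MED1 array left, and the TICAM1 value was -1.28. The other MED1 array, at 164, was nearer to the empty vector arrays. TBK1, a kinase of the same branch, was at 0.56 without MED1 replicate 2. With all arrays TBK1 was at 0.34 ± 0.15 and did not pass (limma, Benjamini-Hochberg adjusted p = 0.55). Among the remaining subunits, inhibitors and deubiquitinases, NFKBIL1 lay furthest, at -0.33 ± 0.21 (adjusted p = 0.653).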

How the data were processed

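The authors deposited 1 table of linear MAS5 signal intensities, with 1 value for each probe set and array. MAS5 is named without a version in the submitters' processing notes, and further steps before deposit were not given in the sources used here. The 2% trimmed mean of the deposited intensities was 495.2 to 495.5 on every array, so no array was rescaled. The 62 control probe sets among the 22277 rows were not used. Genes were named by the platform annotation (19064 probe sets named 1 gene, 1043 several, 2108 none), updated through Entrez identifiers to RefSeq symbols of GRCh38.p14 for 19052; all 48 member probe sets matched.

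Signals were taken as log2(signal + 16), which understates changes of weak genes. Probe sets with a mean signal under the 40th percentile, 32.2, were left out (8886), and the remaining 13329 were tested in R 4.3.3 with limma 3.58.1 (lmFit, eBayes with an intensity trend, two-sided, Benjamini-Hochberg, threshold 0.05). SE is limma's; SD is between the 2 arrays of a group. Whether the duplicates were separate cultures is not labelled, and a p-value here then reflects only how these samples vary, possibly for technical reasons. The residual degrees of freedom were 2 and those of the prior 7.1. The number of arrays limits the precision, and an exact permutation test of 2 against 2 cannot go below 0.333. The procedure was tested on simulated data (10 simulations of MED1 against empty vector, 13329 probe sets, 200 changed). Of the changes, 54.6% of 1.5-fold, 81.6% of 2-fold and 93.4% of 3-fold were recovered, and 8.43% of calls were unchanged probe sets. That last share was above the threshold of 0.05. Simulated noise was normal and independent, with the variances that limma fitted, and changes were placed at all signals above the filter. The rates are therefore averages and were not computed for weak probe sets such as those of CXCL10 and CCL5. The arrays themselves gave 41 calls, fewer than the changes simulated.

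The members and gene lists were chosen with earlier results of these data known. Named are all members, MED1, and from each list of other pathway genes the tested gene of largest change. The single markers (KLK2, TMPRSS2, CD3E, CSF1R, PTPRC, CD14, LYZ, PECAM1, VWF), GADD45B, IRF1, PLAUR, IER3 and TBK1 were chosen after their values were seen. Alternatives covered the pseudocount, filter, centring, quantile normalization, eBayes options, the replicate number as a block and each array left out. Plots were drawn with matplotlib 3.10.9.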

Additional observations from a re-analysis of the deposited data

How the results depend on the processing

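The count of members passing was 0 under the other pseudocounts, filters, scalings and eBayes options, at an adjusted p of 0.1 and with any array left out (limma). It was 1 with the replicate number as a block, when CXCL10 passed (adjusted p = 0.0359); over its 13 alternatives the adjusted p of CXCL10 ran from 0.0359 to 0.538. The labels do not show that the replicate numbers pair the samples, so the block is an alternative alone. Over all tested probe sets, the deviation of replicate 1 from its group mean correlated at 0.12 between the 2 groups. CXCL10 stayed between 1.02 and 1.54 and the tested CCL5 probe set between 0.77 and 1.03 with an array left out. The number of members whose groups did not overlap, 8, was 6 with arrays centred and 7 with quantile normalization, 18 of 48 with no filter, 3 of 9 with the filter at the 60th percentile and 12 to 17 with an array left out, as more probe sets and fewer arrays allow. The median over the tested members was 0.048 with arrays centred on their median, where that of all tested probe sets was 0.036. With an array left out the members' median was -0.0050 to 0.059. The other pathway genes passing numbered 0 to 2 with an array left out and 0 otherwise.

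The following values changed sign, with no call in any setting. CHUK was 0.025 with centring, and TNFAIP2 0.041 with centring and 0.051 with quantile normalization. With an array left out, the ranges that crossed 0 were -0.28 to 0.012 and -0.34 to 0.0048 for the RELA probe sets, -0.21 to 0.86 for RELB, -0.19 to 0.069 for NFKBIA, -0.13 to 0.072 for CHUK, -0.074 to 0.082 and -0.12 to 0.18 for the tested IKBKB probe sets, -0.067 to 0.28 for IKBKG, -0.58 to 0.087 for the dimmer TRAF3 probe set, -0.40 to 0.034 for TRAF6 and -0.20 to 0.18 for TNFAIP2. The lone sample was then assumed to vary like the other group, and the cause was not tested. The MED1 call was lost in 4 of these settings, with the values given above. A filter on the mean log2 signal, added after the data were seen, changed no member's call. Low signals limit the chemokine values, and no detection calls were used.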
